A study of Mus musculus with 12 samples.

Results

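Scgn, Garem2, Plk5, Ano8, Dync2h1, Aurkc, Rassf5 and Cdc42ep5 are 8 of the 37991 genes counted in mouse primordial germ cells with and without a conditional knockout of Ezh2. They encode signalling, kinase and cilium proteins, and they were chosen by their measured fall in knockout libraries of one sex or both. Their knockout values are therefore given as a description, with no test. The study compared Ctrl and Ezh2 conditional knockout (CKO) germ cells of both sexes at E13.5, a stage counted in embryonic days, by RNA sequencing of the sorted germ cells of single embryos. The Ezh2 protein is the catalytic subunit of Polycomb repressive complex 2 and places the repressive mark H3K27me3, and the series asks what that mark does in the germ line while other epigenetic marks are erased. The 4 groups were female Ctrl (3 embryos), female CKO (2), male Ctrl (4) and male CKO (3), all on a C57BL/6 background. What drove the deletion, which exons it removed, which alleles the controls carried and how embryos fell into litters are not given in the sources used here.

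The 8 proteins have unrelated jobs. Scgn encodes secretagogin, a calcium sensor with EF-hand domains that is best known from endocrine cells and neurons, and Garem2 encodes an adaptor between growth factor receptors and the ERK kinases. Plk5 is a polo-like kinase gene, and Aurkc encodes the Aurora kinase that is used mainly by meiotic germ cells. Ano8 encodes an anoctamin that tethers the endoplasmic reticulum to the plasma membrane, and Dync2h1 the heavy chain of dynein 2, the motor that carries cargo back from the tip of the cilium. Rassf5 encodes an effector of RAS and RAP that binds the MST kinases of the Hippo pathway, and Cdc42ep5 an effector of the GTPase CDC42 that binds septins. At this age germ cells of the fetal ovary enter meiosis and those of the fetal testis stop dividing, and Polycomb repressive complex 2 is found mainly at promoters rich in CpG.

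Total counts per library lay between 26180685 and 35299206. Values are in CPM, the usual unit of counts scaled to library size, where 1 CPM stands for 24.2 to 34.2 counts, and the lowest count of any of the 8 genes was 23, for Scgn in female CKO 1. All 8 genes passed the filter on low counts, which left 16708 genes. Ezh2 itself (ENSMUSG00000029687, chromosome 6) was at 150, 145 and 166 CPM in female Ctrl and at 84.5 and 107 in female CKO. It was at 96.6, 144, 129 and 119 CPM in male Ctrl and at 85.8, 82.4 and 85 in male CKO. No CKO library reached the lowest control of its sex, and the log2 difference was -0.68 ± 0.15 (SE) in females, with an edgeR adjusted p of 0.02, and -0.53 ± 0.13 in males, with an edgeR adjusted p of 0.0527. Germ cell markers summed to 5820 to 6600 CPM in every library. Sertoli cell markers summed to 11.7 to 29.6 CPM in male Ctrl and 9.85 to 28.6 in male CKO. In females 3 somatic lists were higher in CKO with no overlap, which can easily arise by chance with 2 CKO and 3 Ctrl libraries. Sertoli markers summed to 3.53 to 5.74 CPM in Ctrl and 6.03 to 6.74 in CKO, interstitial ones to 3.53 to 3.96 and 5.06 to 11.1, and endothelial ones to 2.83 to 3.88 and 5.24 to 5.48, the last mostly Tek, with Kdr, Tie1 and Emcn at most 0.512 CPM. The other somatic lists overlapped between female Ctrl and female CKO. Pregranulosa markers summed to 13.1 to 24.7 CPM in Ctrl and 13.1 to 16 in CKO, and mesonephric ones to 20.1 to 38.5 and 17.2 to 27.3. The part of somatic cells in the female CKO values below was not tested. In bulk RNA, fewer cells of a kind and less RNA per cell cannot be told apart.

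Sequence upstream of the start is shown for 4 of the genes, because the members differed widely in CpG there. RefSeq (GRCm38.p6) gave a start for 7 of the 8. Each line holds the 250 bases before the start, 5′ to 3′ along the gene's strand, with every CpG in capitals. They are Scgn, low in CKO of both sexes, Garem2 with the most CpG, Rassf5 with the fewest and Cdc42ep5, low in female CKO. The counts were made on an older assembly, so these positions serve only to place the sequences.
Scgn, chr13:23991215-23991464, minus strand: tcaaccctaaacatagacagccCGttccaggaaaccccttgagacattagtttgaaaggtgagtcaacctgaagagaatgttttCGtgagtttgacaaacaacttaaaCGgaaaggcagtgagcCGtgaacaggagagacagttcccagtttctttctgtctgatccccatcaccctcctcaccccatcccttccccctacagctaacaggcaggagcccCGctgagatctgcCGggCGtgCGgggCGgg
Garem2, chr5:30104946-30105195, plus strand: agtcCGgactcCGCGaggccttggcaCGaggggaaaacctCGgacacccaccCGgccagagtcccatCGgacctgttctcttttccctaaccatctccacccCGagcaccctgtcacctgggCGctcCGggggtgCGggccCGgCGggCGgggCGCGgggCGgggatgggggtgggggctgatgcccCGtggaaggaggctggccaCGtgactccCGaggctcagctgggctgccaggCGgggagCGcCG
Rassf5, chr1:131200186-131200435, minus strand: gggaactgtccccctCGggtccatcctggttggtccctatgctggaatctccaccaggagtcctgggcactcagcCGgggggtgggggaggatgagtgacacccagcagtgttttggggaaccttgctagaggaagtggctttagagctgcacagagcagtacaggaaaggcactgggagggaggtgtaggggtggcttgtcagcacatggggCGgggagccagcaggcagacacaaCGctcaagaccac
Cdc42ep5, chr7:4164706-4164955, minus strand: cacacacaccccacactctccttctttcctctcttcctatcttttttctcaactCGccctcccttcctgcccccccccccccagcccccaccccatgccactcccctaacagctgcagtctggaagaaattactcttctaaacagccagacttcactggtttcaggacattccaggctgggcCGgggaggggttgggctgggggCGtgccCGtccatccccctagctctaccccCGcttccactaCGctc
Over the wider window of 300 bases, which adds those just after the start, Garem2 held 29 CpG, more than 87.1% of the 32851 promoters in the table. Plk5 held 21, Dync2h1 12 and Scgn 11, all above the median of 7 over those promoters. Aurkc and Cdc42ep5 held 6 each and Rassf5 5. The 7 genes with a start thus do not share CpG-rich starts. Cdc42ep5 and Scgn, the pair lowest in female CKO relative to Ctrl, lay on either side of the median. The start used for Rassf5 and that for Dync2h1 lie inside a longer annotated gene model, so other starts may be in use. The GC box GGGCGG, on either strand, was found in 5 of the 7 windows (all but Dync2h1 and Cdc42ep5), against 35.7% of all windows. CCAAT was found in Plk5, Dync2h1 and Aurkc, against 37.4% of all windows, and the E-box CACGTG in Garem2, against 7.15%.

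**Figure D1:**
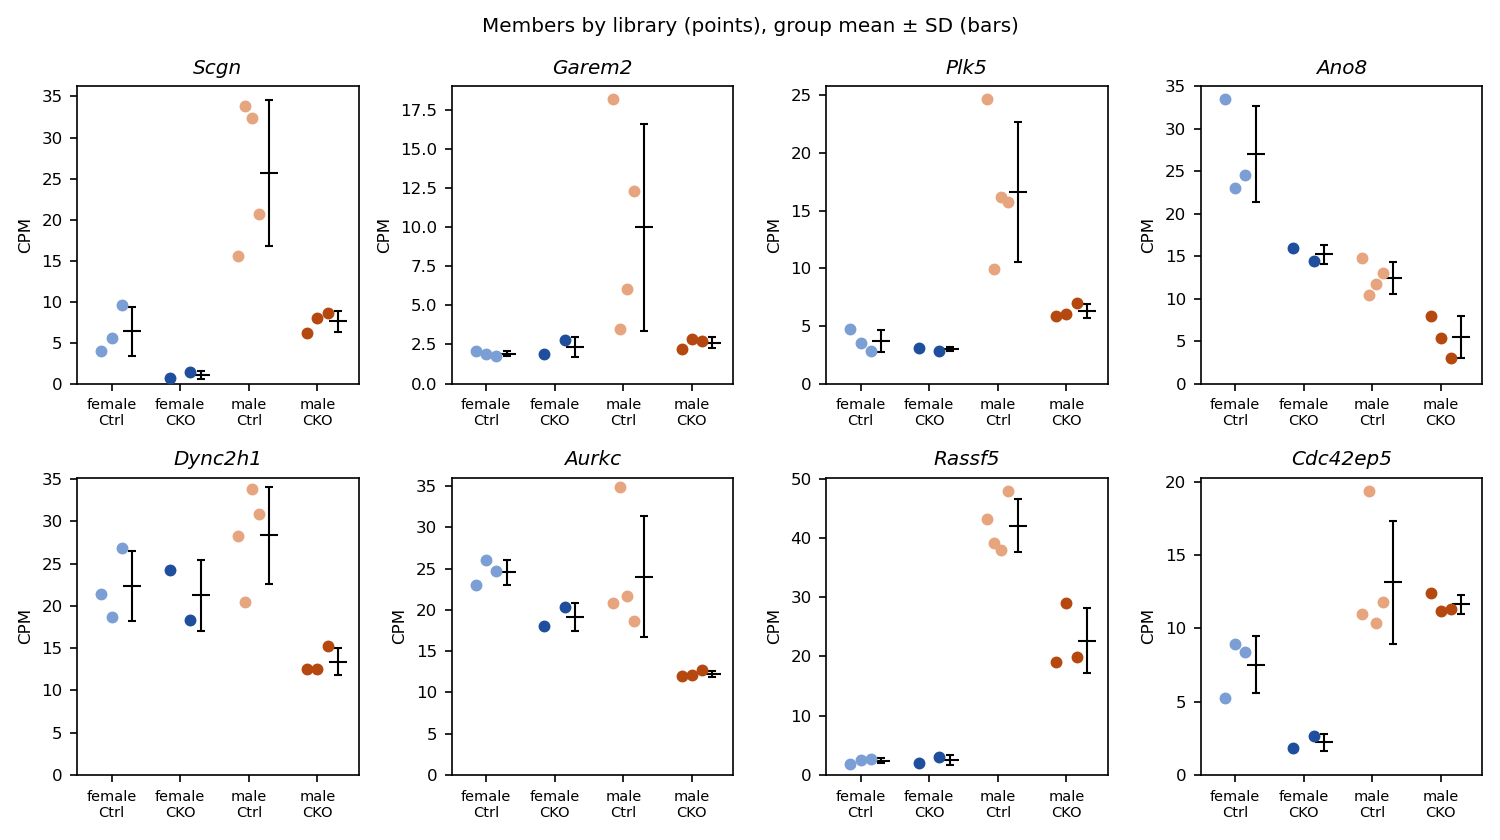
CPM (read counts scaled to library size, linear vertical axes that differ between panels) of the 8 genes in each library, shown as points, with the mean and SD of each group beside them. Scgn is low in CKO of both sexes, Cdc42ep5 in female CKO, and the other 6 genes in male CKO, with Ano8 and Aurkc also below control in females.

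Scgn (ENSMUSG00000021337, chromosome 13) had lower values in CKO than in Ctrl of both sexes. In females it was at 3.93, 5.5 and 9.61 CPM in Ctrl and at 0.673 and 1.35 in CKO. In males it was at 15.6, 33.9, 32.4 and 20.7 CPM in Ctrl and at 6.12, 8.01 and 8.57 in CKO. The groups did not overlap in either sex, and the male CKO embryos lay inside the range of the female controls. Female CKO kept 16% of the female Ctrl mean and male CKO 29.5% of the male one, with log2 fold changes of -2.64 (SE 0.47) and -1.76 (SE 0.35). Scgn is a gene of neurons and endocrine cells, and the 8 markers of such cells summed to 11.5 to 18.4 CPM in male Ctrl and 20.2 to 23 in male CKO, and to 15.8 to 19.8 in female Ctrl and 17.3 to 18.3 in female CKO. The part of such cells in the result was not tested.

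Cdc42ep5 (ENSMUSG00000063838, chromosome 7) was low in female CKO. Its values were 5.28, 8.91 and 8.41 CPM in female Ctrl against 1.81 and 2.65 in female CKO, or 29.7% of the control mean (log2 fold change -1.75, SE 0.33). Male CKO, at 12.4, 11.2 and 11.3 CPM, fell within the male Ctrl values of 11, 19.4, 10.4 and 11.8 (log2 fold change -0.18, SE 0.25). Among the 8 genes this was the one whose male groups overlapped.

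Garem2 (ENSMUSG00000044576, chromosome 5) and Plk5 (ENSMUSG00000035486, chromosome 10) were low in male CKO from a high and uneven male control level. Garem2 was at 18.2, 3.47, 6.02 and 12.3 CPM in male Ctrl and at 2.2, 2.84 and 2.75 in male CKO. Its 4 male controls thus spanned 5.24-fold, while the CKO males sat near the females, which had 2.06, 1.88 and 1.75 CPM in Ctrl and 1.9 and 2.8 in CKO. The log2 fold change was -1.94 in males (SE 0.45) and 0.31 in females (SE 0.53). Plk5 was at 24.7, 9.94, 16.2 and 15.7 CPM in male Ctrl and at 5.89, 6.03 and 6.98 in male CKO. Female values of Plk5 were 4.7, 3.53 and 2.81 CPM in Ctrl and 3.1 and 2.86 in CKO, below every male library. Its log2 fold change was -1.4 in males (SE 0.28) and -0.31 in females (SE 0.33). For both genes the highest value was in male Ctrl 1, the library with the highest Sertoli marker sum of the male controls (29.6 CPM). Male CKO 3 had a Sertoli marker sum of 28.6 CPM, with Garem2 at 2.75 CPM and Plk5 at 6.98. The 2 libraries differed in other lists. Male Ctrl 1 had the highest pregranulosa and interstitial sums of the male libraries, 13.3 and 8.76 CPM, against 5.16 and 3.75 in male CKO 3. Endothelial and macrophage sums were lower in male Ctrl 1 (4.53 and 2.19 CPM) than in male CKO 3 (6.98 and 3.85). The part of somatic cells in the result was not tested. Without male Ctrl 1 the male log2 fold change was -1.48 for Garem2 and -1.14 for Plk5.

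Aurkc (ENSMUSG00000070837, chromosome 7), the meiotic Aurora kinase gene, stood at about the same level in controls of both sexes. It was at 20.8, 34.9, 21.7 and 18.7 CPM in male Ctrl and at 12, 12.1 and 12.7 in male CKO. Females had 23, 26 and 24.7 CPM in Ctrl and 18 and 20.4 in CKO. Neither sex showed overlap, and the CKO level was 51.1% of Ctrl in males (log2 fold change -0.97, SE 0.19) and 78.3% in females (-0.35, SE 0.23).

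Ano8 (ENSMUSG00000034863, chromosome 8), the tether gene, was lower in CKO of both sexes with no overlap. Its values were 33.5, 23 and 24.6 CPM in female Ctrl and 16 and 14.4 in female CKO. Male Ctrl had 14.8, 10.4, 11.7 and 13 CPM and male CKO 7.92, 5.41 and 2.99. The log2 fold change was -0.83 (SE 0.31) in females and -1.2 (SE 0.27) in males. Dda1 lies opposite Ano8, its reads cannot be separated by strand in this chemistry, and its own log2 fold change was -0.06 in males and 0.04 in females.

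Dync2h1 (ENSMUSG00000047193, chromosome 9), the cilium motor gene, was lower in male CKO. It was at 28.2, 20.5, 33.8 and 30.9 CPM in male Ctrl and at 12.5, 12.5 and 15.2 in male CKO, a log2 fold change of -1.08 (SE 0.19). In females the values interleaved, with 21.4, 18.7 and 26.8 CPM in Ctrl and 24.2 and 18.3 in CKO (-0.07, SE 0.22).

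Rassf5 (ENSMUSG00000026430, chromosome 1), the RAS effector gene, was high in males and low in females. It was at 43.2, 39.1, 38 and 47.9 CPM in male Ctrl and at 19.1, 29.1 and 19.9 in male CKO, which is 54% of the control mean (log2 fold change -0.89, SE 0.19). In females it was at 1.9, 2.5 and 2.71 CPM in Ctrl and at 1.99 and 3.07 in CKO (0.09, SE 0.25). CKO males thus stayed well above every female library, in contrast to Garem2, for which CKO males and females overlapped.

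CKO and Ctrl libraries did not overlap for 7 of the 8 genes in males and for 4 in females (Scgn, Ano8, Aurkc and Cdc42ep5). The share of all tested genes without overlap was not counted. By another measure, 0.497% of all tested genes were called lower in male CKO and 4.16% in female CKO. A call, here and below, is an edgeR adjusted p under 0.05, so these shares cannot be set against the counts without overlap. Since the fall chose the genes, nothing is read from these counts. These shares were also unsteady. The 695 genes called lower in females became 139 without female CKO 2 and 223 without female CKO 1, and the 83 in males became 6 without male CKO 3, 8 without male CKO 2, 12 without male Ctrl 3 and 187 without male Ctrl 2. The median log2 fold change of the 8 was -1.14 in males and -0.33 in females, against -0.02 and 0 over all tested genes. Whether the members' falls differed between the sexes was not tested, as those falls chose them. Over all tested genes that difference had 0 calls in edgeR (0% of 16708), with 1401 genes at an unadjusted p under 0.05, 61 calls in DESeq2 and 0 in limma-voom.

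**Figure D2:**
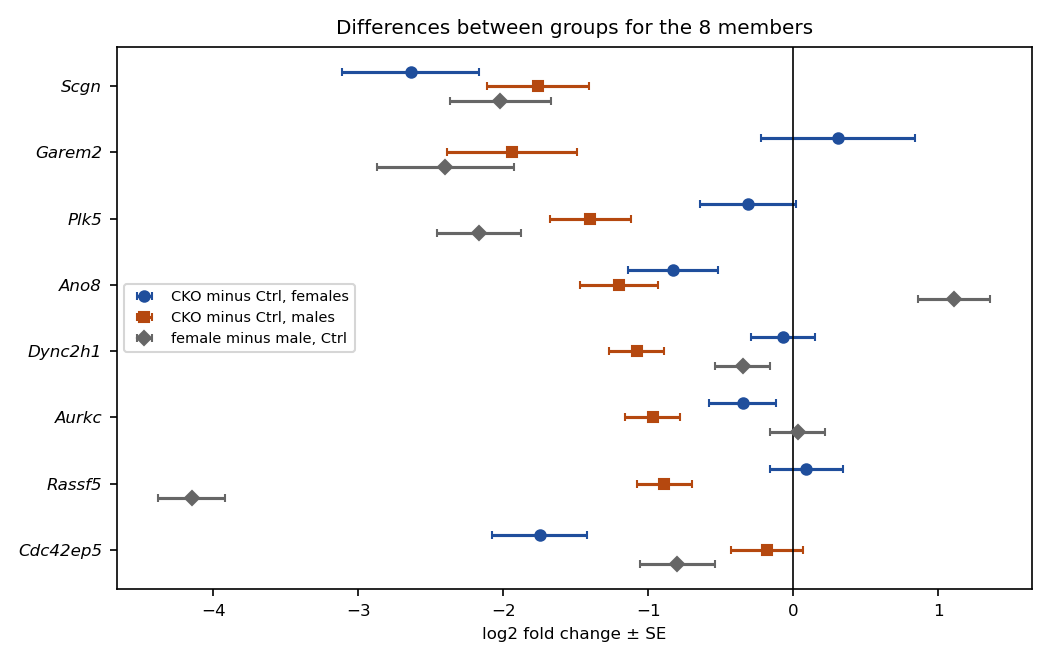
Log2 fold changes (horizontal axis) with SE bars for the 8 genes, for CKO minus Ctrl in females (circles) and males (squares) and for female minus male controls (diamonds). Scgn lies left of 0 in all 3 comparisons, Rassf5 has the widest gap between control sexes at -4.15, and Ano8 alone has a diamond clearly right of 0.

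Levels in control females and control males are given as a description as well. For 7 of the 8 genes male CKO lay below male Ctrl with no overlap, and choosing on such a fall favours genes with high male controls. Over all tested genes, 19.4% were called lower and 20.1% higher in control females than in control males. Rassf5 showed the widest gap of the 8, 17.7-fold higher in males (log2 fold change -4.15 for females minus males, SE 0.23). Garem2 was 5.26-fold higher in males (-2.4, SE 0.47), Plk5 4.51-fold (-2.17, SE 0.29) and Scgn 4.04-fold (-2.02, SE 0.35). For these 4 genes each male control lay above each female control. The share of all tested genes without overlap between the control sexes was not counted, so nothing is read from such separations.

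Cdc42ep5 showed a smaller gap, 1.74-fold (-0.8, SE 0.26), which was -0.56 without male Ctrl 2. Its control values did not overlap between the sexes either. Ano8 ran the other way, 2.17-fold higher in females (1.11, SE 0.25), also with no overlap. The control values of Dync2h1 (-0.35, SE 0.19) and Aurkc (0.03, SE 0.19) overlapped between the sexes. Sertoli markers summed to 11.7 to 29.6 CPM in male Ctrl and 3.53 to 5.74 in female Ctrl, and their part in the sex gaps was not tested. The mesonephric list summed to 96.1 to 114 and 20.1 to 38.5 CPM, but nearly all of the male sum was Lhx1 (at most 113 CPM in any library), while Pax2 (at most 0.0993 CPM), Cdh16 (0.0347) and Emx2 (0.782) were near 0.

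The genes most like Scgn were ranked by the root mean square difference of centred log2 CPM profiles over the 12 libraries. They were Ccdc146 (0.491), Smgc (0.675), Dusp4 (0.697), Nfkbiz (0.723) and Catip (0.737). Ccdc146, Smgc and Catip stayed at or under 5.15 CPM throughout. Nfkbiz, which encodes a nuclear regulator of NF-kappaB, was at 15.2, 16.5 and 22.4 CPM in female Ctrl and 5.56 and 7.49 in female CKO. In males it was at 26.7, 62.1, 44.8 and 35.2 CPM in Ctrl and 26.1, 26.9 and 24 in CKO. The 4 groups stood in the same order as for Scgn, which a choice by likeness to Scgn favours. Among the other 7 members, Cdc42ep5 was nearest to Scgn at 0.866 and Ano8 farthest at 2.02, so the 8 genes do not form a single pattern.

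Relatives of each member were taken from 7 lists of its family or pathway, members left out. Together 185 relatives passed the filter. In female CKO 14 of them (7.57%) were lower and 5 (2.7%) higher, against 4.16% and 3.01% of all tested genes. In male CKO 1 (0.541%) was lower and 2 (1.08%) higher, against 0.497% and 1.2%. The male shares were near the background, which rests on few genes, and the medians of the 185 were -0.09 in females and -0.03 in males.

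**Figure D3:**
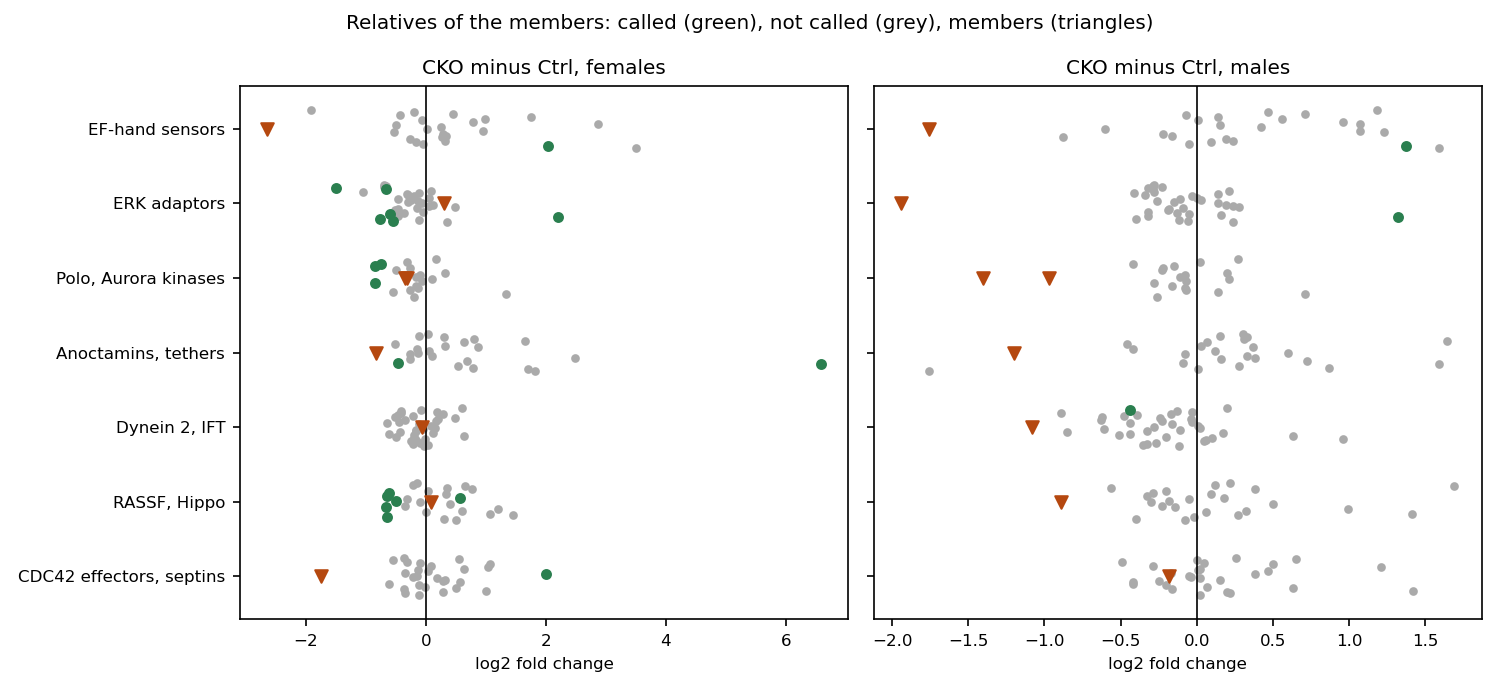
Log2 fold change (horizontal axis, CKO minus Ctrl) of each tested relative in 7 lists (rows), for females on the left and males on the right, with called genes in green, others in grey and the members of the list as triangles. In males 3 relatives are green. The triangles carry no test, because the members were chosen for a low CKO value. In males all of them lie left of 0. In females Scgn (-2.64) and Cdc42ep5 (-1.75) lie farthest left, while Garem2 (0.31) and Rassf5 (0.09) lie right of 0. The point beyond 6 in females is Ano5, which had no count in female Ctrl.

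Among 23 EF-hand calcium sensors, Calb2 was the one called, and it moved opposite to Scgn. Calb2 encodes calretinin, a close relative of secretagogin. It was at 2.03, 1.28 and 0.995 CPM in female Ctrl and at 7.79 and 4 in female CKO, so it rose by 2.03 on the log2 scale (SE 0.38, edgeR adjusted p = 0.0089). Leaving out female CKO 1 gave 1.48 (edgeR adjusted p = 0.0984). Where 1 female CKO embryo is left out, here and below, the other is assumed to vary like the other groups. Male libraries held 1.2, 1.69, 1.22 and 1.44 CPM in Ctrl and 3.15, 4.3 and 3.34 in CKO. The male groups did not overlap (1.37, SE 0.32, edgeR adjusted p = 0.0499), but the call held in 8 of 19 alternatives. Calb1, which encodes calbindin, had at most 21 counts in any library (edgeR adjusted p = 0.0986 in females).

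**Figure D4:**
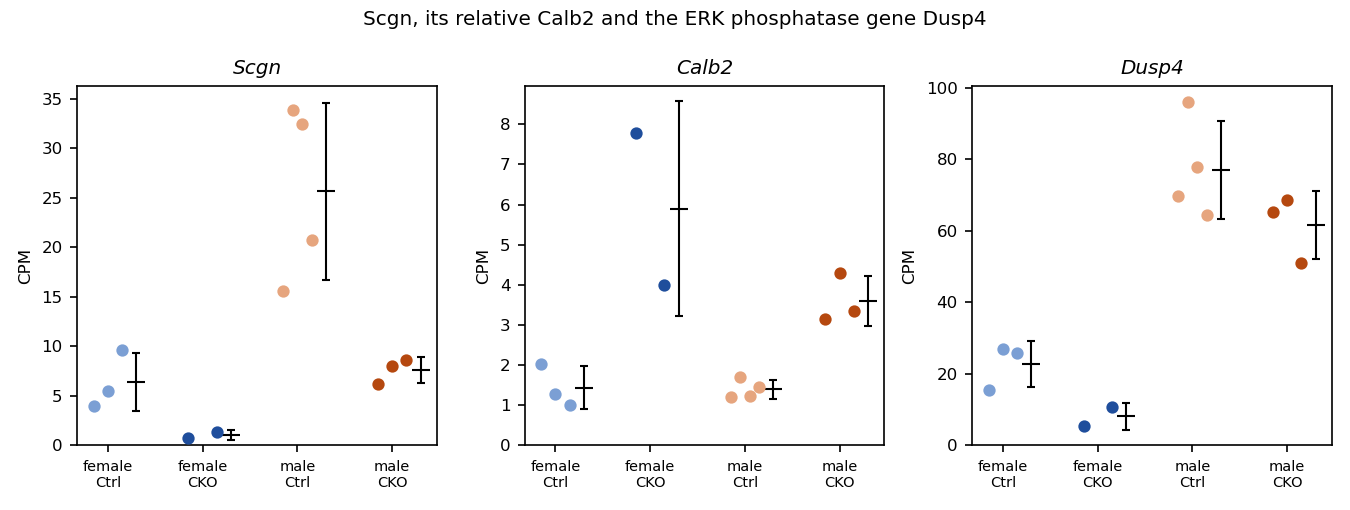
CPM (linear vertical axes that differ between panels) of Scgn, its relative Calb2 and the ERK phosphatase gene Dusp4 in each library, shown as points, with the mean and SD of each group. Calb2 is higher in CKO of both sexes where Scgn is lower, and Dusp4 is lower in female CKO.

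Of 33 adaptors and signalling genes of the ERK pathway, 5 were lower and 1 higher in female CKO, and 1 was higher in male CKO. The gene called in both sexes was Gab3, which encodes an adaptor of the GAB family. Gab3 was at 11.1, 13.2 and 9.3 CPM in female Ctrl and at 63.5 and 40.3 in female CKO, and it rose by 2.21 on the log2 scale (SE 0.34, edgeR adjusted p = 0.0045). Male values were 8.15, 4, 3.87 and 5.11 CPM in Ctrl and 8.43, 17 and 14.2 in CKO (1.32, SE 0.29, edgeR adjusted p = 0.0397, held in 12 of 20 alternatives). The other GAB genes of the list did not rise. In females Gab2 fell by 0.76 (SE 0.21, edgeR adjusted p = 0.0485), and Gab1 was at -0.12 (SE 0.26, edgeR adjusted p = 0.824). In males Gab2 was at -0.4 (edgeR adjusted p = 0.296) and Gab1 at -0.12 (edgeR adjusted p = 0.832). Dusp4, which encodes a phosphatase that switches off ERK, fell from 15.3, 26.9 and 25.7 CPM in female Ctrl to 5.42 and 10.7 in female CKO (-1.49, SE 0.3, edgeR adjusted p = 0.0133). Leaving out female CKO 1 gave -1.07 (edgeR adjusted p = 0.108), and the male value was -0.32 (edgeR adjusted p = 0.535). Grb2, the adaptor that GAREM proteins bind, fell by 0.55 in females (SE 0.1, edgeR adjusted p = 0.00879), and had a log2 fold change of -0.48 without female CKO 2 (edgeR adjusted p = 0.0814). Gab2, Shc1 and Spred2, named after their values were seen, completed the 5. Between 2 and 8 genes of the list were lower across the alternatives, 2 of them with library size alone as the scaling. Garem1, the nearest relative of Garem2, had log2 fold changes of 0.35 in females (edgeR adjusted p = 0.34) and 0.24 in males (edgeR adjusted p = 0.553).

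The polo and Aurora kinases related to Plk5 and Aurkc had no call in either sex. Plk1, Plk2, Plk3, Plk4, Aurka and Aurkb had edgeR adjusted p-values from 0.0965 to 0.789 in females and from 0.388 to 0.882 in males, and Plk2 passed in 3 of 20 alternatives in females and 1 of 20 in males. Of the 18 genes of that list, 3 partners of these kinases fell in female CKO. Bub1, a kinase of the spindle checkpoint, fell from 512, 550 and 566 CPM to 342 and 260 (-0.85, SE 0.14, edgeR adjusted p = 0.00562). Incenp, the scaffold that binds Aurora B and C, fell from 272, 258 and 230 CPM to 140 and 141 (-0.85, SE 0.15, edgeR adjusted p = 0.00742). Cep192, the centrosome scaffold of Aurora A and PLK1, fell by 0.75 (SE 0.15, edgeR adjusted p = 0.0127). Without female CKO 2 none of the 3 passed, with Bub1 at -0.66, Incenp at -0.84 and Cep192 at -0.71 (edgeR adjusted p = 0.0567, 0.0511 and 0.0952). Cep192 also missed the threshold without female CKO 1, at -0.78 (edgeR adjusted p = 0.0686). The sizes for Incenp and Cep192 thus hardly moved. In males 0 of 18 were called in edgeR, with 3 at an unadjusted p under 0.05 and 1 call each in DESeq2 and limma-voom.

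Dynein 2 and intraflagellar transport, the machinery of Dync2h1, gave 0 calls among 36 tested genes in females in edgeR (7 at an unadjusted p under 0.05, 3 calls in DESeq2 and 2 in limma-voom). In males 1 was lower, Kifap3, which encodes a subunit of the outbound motor kinesin 2. Kifap3 was at 67.7, 68, 76.8 and 70.1 CPM in male Ctrl and at 46.9, 54.7 and 55 in male CKO. That change, -0.44 on the log2 scale (SE 0.1, edgeR adjusted p = 0.0468), held in 4 of 20 alternatives. In edgeR 13 of the 36 had an unadjusted p under 0.05 in males, against 2789 of all 16708 genes. DESeq2 and limma-voom made 6 calls each in males, 5 of them lower. Over all genes they called 411 and 497 lower in males. The list's male median was -0.21 against -0.02 for all genes. Dync2li1, the light intermediate chain of the same motor, had a male log2 fold change of -0.12 (edgeR adjusted p = 0.81).

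Of 24 RASSF and Hippo genes, 5 were lower and 1 higher in female CKO, the sex in which Rassf5 itself was at most 3.07 CPM. Stk3, which encodes the MST2 kinase that RASSF proteins bind, fell from 65, 75.2 and 72.1 CPM to 44.8 and 44.2 (-0.67, SE 0.12, edgeR adjusted p = 0.00866). Yap1, the transcriptional effector that the pathway restrains, fell by 0.65 (SE 0.14, edgeR adjusted p = 0.0193), and Mob1b, which encodes an activator of the LATS kinases, rose by 0.57 (SE 0.13, edgeR adjusted p = 0.0182). Stk3 missed the threshold with either female CKO embryo left out, at about the same size (-0.67 and -0.65, edgeR adjusted p = 0.0553 and 0.0667). Mob1b missed it without female Ctrl 2 (0.56), without female Ctrl 3 (0.57) and without female CKO 1 (0.46), with edgeR adjusted p-values from 0.0577 to 0.143. Yap1 missed it without female Ctrl 3 (-0.56, edgeR adjusted p = 0.0761) and without female CKO 1 (-0.51, edgeR adjusted p = 0.155). The others, named after their values were seen, were Rassf3, Lats2 and Nf2. Across the alternatives 1 to 5 genes of the list were lower, 2 of them with library size alone as the scaling. In males 0 of 24 were called in edgeR, with 6 at an unadjusted p under 0.05 and 1 call each in DESeq2 and limma-voom, while Rassf1 (-0.08) and Rassf2 (-0.4) had edgeR adjusted p-values of 0.95 and 0.618.

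The anoctamin and tether list of Ano8 had 23 tested genes. Ano6, which encodes a scramblase, fell by 0.47 on the log2 scale in female CKO (SE 0.13, edgeR adjusted p = 0.0484), a call held in 3 of 20 alternatives. Ano5 had 0 counts in the 3 female controls and 2 and 24 in female CKO, so its call (edgeR adjusted p = 0.0441) rests on female CKO 2, and it held in 7 of 16 alternatives. Ano10 was at most 3.42 CPM (edgeR adjusted p = 0.217 in females). In males 0 of 23 were called in edgeR, with 5 at an unadjusted p under 0.05, 3 calls in DESeq2 and 1 in limma-voom. For the CDC42 effectors and septins related to Cdc42ep5, 1 of 28 was called in females and 0 in males in edgeR (in males 6 at an unadjusted p under 0.05, 2 calls in DESeq2 and 3 in limma-voom). Pak3, a kinase gene activated through CDC42, was at 3.93, 1.63 and 1.27 CPM in female Ctrl and 8.34 and 10.1 in female CKO (2.01, SE 0.56, edgeR adjusted p = 0.0456, held in 12 of 20 alternatives). Cdc42ep4, the paralog of Cdc42ep5 fixed for comparison, had a female log2 fold change of -0.37 (edgeR adjusted p = 0.315).

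Genes beside the members on the chromosome were compared last, to see whether the low values extended past each gene. The 16 nearest tested protein-coding genes, 1 on each side, had 0 calls in either sex in edgeR (in each sex 2 at an unadjusted p under 0.05). DESeq2 made 2 calls in females and 1 in males, and limma-voom 0 and 1. Their median log2 fold change was -0.155 in females and -0.05 in males. Hadha, which lies opposite Garem2, had a male value of -0.43 (SE 0.14, edgeR adjusted p = 0.125) and Eif2d, opposite Rassf5, of -0.1 (SE 0.11, edgeR adjusted p = 0.724). Both genes had far more counts than the member they overlap, and without strand their reads in the shared stretch cannot be told apart. Usp29, next to Aurkc, had the smallest adjusted p of the neighbours in males, with log2 fold changes of -0.58 in males (edgeR adjusted p = 0.0931) and -0.65 in females (edgeR adjusted p = 0.0728).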

How the data were processed

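RNA of primordial germ cells sorted from single E13.5 embryos was amplified with SMART-seq V4 and made into libraries with NEBNext Ultra II, per the labels' protocols. The authors deposited read counts per gene for 12 libraries. Builds mm9 and NCBIM37 stand in the submitters' processing notes, together with TopHat2 2.0.11, Trimmomatic 0.33, featureCounts and CASAVA 1.8.4. How reads with several matches were counted is not given in the sources used here. Symbols came from GENCODE M21 and covered 99.5% of the counts.

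Counts were fitted in edgeR 4.0.16 (quasi-likelihood, robust, R 4.3.3) with 1 coefficient per group over all 12 libraries and 8 residual degrees of freedom. Scaling was TMM (factors 0.926 to 1.11), and filterByExpr used a minimum count of 10 and a minimum total of 15. P-values were adjusted by Benjamini-Hochberg over 16708 genes, with calls under 0.05. The fit was checked on simulated counts. Alternatives used limma-voom (limma 3.58.1), DESeq2 1.42.0, other scalings and filters, a replicate block, only the groups compared, and each library left out. Libraries of a group differed beyond counting noise (chi-square per gene 18.6 to 74.2). The embryo was the replicate, and the numbers in the labels are not said to pair embryos.

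The 8 genes, the 7 lists of relatives and the marker lists were chosen with earlier results of these data known. Of 271 list entries, 2 had no match. The genes named in the text were the members, Ezh2, up to 3 called relatives per list and sex with the smallest adjusted p, 15 closest relatives fixed by name, and the 5 genes most like Scgn (prior count 1). Promoter sequences are RefSeq's on GRCm38.p6. A test of the members between control sexes had been planned and is not reported, because the choice of the members favours high male controls.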

Additional observations from a re-analysis of the deposited data

Results flagged for a closer look

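Cdc42ep5 in the male controls was flagged because male Ctrl 2, at 19.4 CPM, stood apart from the other 3 libraries at 10.4 to 11.8 CPM. The gap was 0.844 of the group's range, above Dixon's critical value for 4 samples. Aurkc came close at 0.815, also through male Ctrl 2. Male Ctrl was the one group with enough libraries for this screen, 9 genes were screened in it, and chance flags about 1 in 20 groups. Without male Ctrl 2 the log2 fold change of Cdc42ep5 between control sexes was -0.56 and its male CKO value was 0.07.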

How the results depend on the processing

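The number of genes called between the sexes in controls kept within 1.5 times its value of 6604 in all alternatives. With library size alone as the scaling, the median of all genes moved to 0.11 in the female CKO comparison, and its calls split into 652 higher and 357 lower against 503 and 695. The sex comparison then split into 4062 and 2592 against 3358 and 3246. For the female CKO comparison, with 1198 calls, DESeq2 gave 1989 and limma-voom 2068, and leaving out 1 library gave 317 (without female CKO 2) to 1730 (without male Ctrl 2). For the male one, with 284 calls, DESeq2 gave 990, limma-voom 1122 and only the groups compared 63, and leaving out 1 library gave 36 (without male CKO 2) to 502 (without male Ctrl 2). Of the male calls, 83 were lower in CKO, against 34 with the block, 11 with only the groups compared, 411 in DESeq2 and 497 in limma-voom. The difference of the CKO effects, with 0 calls, had 2 with no filter, 61 in DESeq2 and 0 to 3 with 1 library left out, and it could not be fitted on only the groups compared. The causes were not tested.

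With the replicate number as a block, the replicate block fit called 1054 genes in females, 105 in males and 6142 between the sexes. Same-numbered embryos of CKO and Ctrl did not deviate together (correlations from -0.0256 to 0.0932), so the numbers were not taken as pairs.

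The CKO log2 fold changes of the members under the 20 alternatives are given as a description as well. Their sign varied for Dync2h1 in females (-0.28 to 0.13), Rassf5 in females (-0.24 to 0.38) and Cdc42ep5 in males (-0.27 to 0.07). Scgn ranged from -3.22 to -2.2 in females and from -1.94 to -1.6 in males on the log2 scale. Garem2 in females ranged from 0.02 (without female CKO 2) to 0.57 (without female CKO 1), and Rassf5 there reached -0.24 (without female CKO 2). The precision of the female values is limited by the 2 CKO embryos.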
